A study of Homo sapiens with 12 samples.

Results

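Cytosolic ribosomal proteins are the proteins that, with the ribosomal RNAs, build the ribosome of the cytoplasm, RPS proteins in the small subunit and RPL proteins in the large one. The genes were chosen by symbol: RPL or RPS followed by a number, with an optional X, A or L, and RPLP0, RPLP1, RPLP2 and RPSA, without pseudogenes and without the RPS6K kinases. The choice gave 80 of 37184 genes in the table of experiment 1 and 79 of 31910 in that of experiment 2. Of these, 79 were in both tables, 48 of the large subunit and 31 of the small one. Symbols were deposited for 68 and 67 of them, and the other 12, RPS16 and RPS19 among them, were named from their gene identifiers.

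Reads per gene and reads across back-splice junctions were counted in total RNA of HEK293 cells, a human embryonic kidney line, to ask how the splicing factor RBFOX1 affects circular RNA. It held 12 libraries in 4 groups of 3. Induced cells of both experiments were the line HEK293_Flp In/TO ΔFox2_Flag_mFox1, made with the Flp-In T-REx system from a clone deficient in Rbfox2 and carrying an HA- and Flag-tagged mouse Rbfox1 behind a promoter switched on by doxycycline, of which 0.5 µg/ml was given for 2 weeks. The controls of experiment 1 were untreated cells of that same line, so both of its groups share the labelled Rbfox2 deficiency and the transgene. Only its induced cells got doxycycline, so the drug itself and RBFOX1 cannot be told apart there. The controls of experiment 2 were parental HEK293 cells given doxycycline, so its groups differ in the cell line, Rbfox2 and the transgene as well as in RBFOX1, and these cannot be told apart. The line goes back to 1 clone. The labels do not say whether replicates were separate cultures, so the p values weigh each difference only against the spread of these libraries, which may be technical.

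Ribosomal protein genes are read at high rates in growing cells, and nearly all of their products are needed in equal numbers. Most of their mRNAs begin with a run of pyrimidines, the 5′ terminal oligopyrimidine (TOP) tract, through which the kinase mTOR and the protein LARP1 control their translation. Surplus ribosomal proteins are degraded, and free RPL5 and RPL11, together with the 5S ribosomal RNA, can bind MDM2 and so stabilise p53.

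The start of the mRNA is shown here for members on which the results turn, because genes with the same kind of start moved in opposite directions. Each window is 30 bases of the sense strand, 15 before and 15 from an annotated RefSeq start, in build GRCh38.p14. Capitals mark the tract, taken as a C at the start followed by at least 4 bases that are each C or T, up to the end of the run or of the window. RPS16, RPS19 and RPL10 had large rises in experiment 2, RPS3A and RPL31 fell there, and RPS12 and RPL11 moved in experiment 1.
RPS16, chr19:39435935-39435964, minus strand: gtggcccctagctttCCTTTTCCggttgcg
RPS19, chr19:41860240-41860269, plus strand: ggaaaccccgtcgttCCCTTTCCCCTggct
RPL10, chrX:154398362-154398391, plus strand: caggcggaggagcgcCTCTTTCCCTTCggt
RPS3A, chr4:151099613-151099642, plus strand: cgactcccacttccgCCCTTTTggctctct
RPL31, chr2:101002274-101002303, plus strand: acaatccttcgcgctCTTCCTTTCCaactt
RPS12, chr6:132814554-132814583, plus strand: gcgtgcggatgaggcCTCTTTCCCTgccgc
RPL11, chr1:23691791-23691820, plus strand: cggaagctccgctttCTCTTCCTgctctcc
RPS27 and its paralog RPS27L are shown because only the first has the tract.
RPS27, chr1:153990747-153990776, plus strand: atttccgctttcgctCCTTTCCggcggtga
RPS27L, chr15:63157463-63157492, minus strand: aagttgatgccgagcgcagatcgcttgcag
A tract stood at an annotated start of 46 of the 63 members found in the start-site table (73%), against 5.14% of its 27305 genes. By subunit it was 28 of 38 large and 18 of 25 small subunit genes. In experiment 2, 20 of the 46 genes with a tract were higher and 7 lower, with a median log2 change of 0.06. Of the 17 without one, 12 were higher and 2 lower, with a median of 0.28. Over all 17945 genes tested in experiment 2, 32.1% were higher and 32.9% lower, with a median of -0.01. These counts describe annotated starts, and a difference between genes with and without a tract was not tested.

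Library totals ran from 34025315 to 55298749 gene counts. The RBFOX1 gene, to whose human row reads of the mouse transgene can map, stood at 3.77 ± 0.58 CPM (counts scaled to the size of the library; SD, n = 3) in uninduced and 39.2 ± 0.39 in induced cells of experiment 1. In experiment 2 it had 0 reads in the parental libraries, which allows up to 0.0735 CPM, and 40.2 ± 0.7 CPM in induced cells. RBFOX2 reads were still present in the line labelled as deficient, at 53.7 ± 3.9 CPM in uninduced and 53.7 ± 2.78 in induced cells of experiment 1 and 50.8 ± 4.76 in induced cells of experiment 2, against 183 ± 0.072 in parental cells. HEK293 markers summed to between 950 and 1197 CPM in every library, with NEFL at 0. Markers of haematopoietic cells summed to at most 0.289 CPM, of hepatocytes to 0.259 and of fibroblasts to 6.54. The fibroblast sum was 2.99 to 3.61 CPM in uninduced and 1.86 to 2.42 CPM in induced libraries of experiment 1, and 5.49 to 6.54 CPM in parental and 1.93 to 3 CPM in induced libraries of experiment 2, and its part in the results was not tested. Genes of the mitochondrial genome took 27.5 ± 1.11% and 28 ± 0.58% of counts in uninduced and induced cells of experiment 1 and 0.981 ± 0.049% and 1.09 ± 0.11% in parental and induced cells of experiment 2. Levels are therefore compared within an experiment unless stated. These are bulk samples, in which fewer cells of a kind and less RNA per cell cannot be told apart.

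The family as a whole took a similar share of reads in both groups of experiment 1 and a larger one in the induced cells of experiment 2. Summed over members, it was 4.44, 4.37 and 3.83% of gene counts in uninduced libraries 1, 2 and 3, and 4.3, 3.95 and 4.24% in induced ones. The 2 groups overlap, with means of 4.21 ± 0.33% and 4.16 ± 0.19% (SD, n = 3). In experiment 2 it was 4.72, 4.46 and 4.56% in parental libraries and 5.11, 4.96 and 5.18% in induced ones. There the groups do not overlap, and the means were 4.58 ± 0.13% and 5.08 ± 0.11%. With the mitochondrial genes left out of the total, the shares of experiment 1 were 5.82 ± 0.54% and 5.78 ± 0.3%. The count of large over small subunit genes was 1.41 ± 0.004 in uninduced, 1.44 ± 0.003 in induced, 1.27 ± 0.007 in parental and 1.25 ± 0.004 in induced cells of experiment 2. It was higher on induction in experiment 1 and lower in induced than in parental cells of experiment 2, and in neither did the groups overlap. The sums weigh each gene by its reads. RPS4X, a small subunit gene with the most reads in experiment 2, went there from 4925 to 5971 CPM. The median log2 changes there were 0.11 for large and 0.10 for small subunit genes. The median log2 CPM of large subunit genes minus that of small ones was 0.53, 0.52 and 0.51 in parental libraries. It was 0.30, 0.15 and 0.20 in induced libraries of experiment 2, below every parental one. Whether a whole subunit shifted was not tested.

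**Figure D1:**
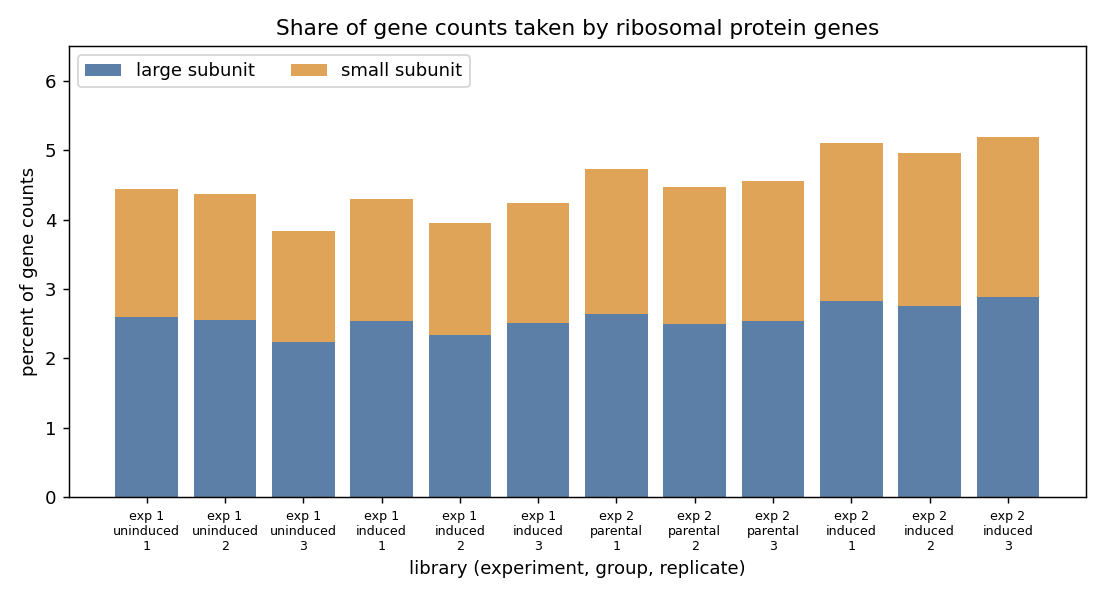
Percent of all gene counts taken by ribosomal protein genes in each of the 12 libraries, large subunit below and small subunit on top. The 3 induced libraries of experiment 2 reach 4.96 to 5.18%, above the 3 parental ones at 4.46 to 4.72%, and uninduced library 3 of experiment 1 is lowest at 3.83%.

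Doxycycline in the inducible line left nearly all ribosomal protein genes where they were within the spread of the replicates. Experiment 1 tested 78 members, and 2 passed the test as higher and 2 as lower, that is 2.56% in each direction. Over all 18978 genes tested, 10.5% were higher and 10.4% lower, 20.9% in all. The median log2 change of the members was 0.02, beside 0.00 over all genes. It was 0.03 for the 47 large and 0.02 for the 31 small subunit genes. The test throughout is the quasi-likelihood F-test of edgeR with Benjamini-Hochberg adjustment over all genes, called under 0.05. At an unadjusted p under 0.05 there were 6 members. The groups did not overlap in 3 members that were higher and 3 that were lower, 7.69% of those tested, against 40.1% of all genes.

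RPS12, a small subunit protein, had the largest fall in experiment 1. It stood at 563, 575 and 517 CPM in the uninduced libraries and at 456, 405 and 448 CPM in the induced ones. Every induced library was below every uninduced one. The log2 change was -0.34 ± 0.07 (SE; adjusted p = 0.0113). RPS27L, a paralog of RPS27 and a known target of p53, went from 32.4, 30.5 and 24.9 CPM to 37, 34.3 and 37.1 CPM. Its groups did not overlap, and it rose by 0.30 ± 0.09 on the log2 scale (adjusted p = 0.0448).

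RPL11, which with RPL5 forms the protein part of the 5S particle, had 569.7, 569 and 464 CPM in uninduced and 725, 639.8 and 643 CPM in induced libraries. It rose by 0.32 ± 0.09 on the log2 scale (adjusted p = 0.0356), and the groups did not overlap. RPL5 had 1181 ± 12.4 CPM before and 1190.0 ± 59.5 CPM after (SD, n = 3). The RPL5 change was 0.01 ± 0.07 (adjusted p = 0.927). Among the large subunit genes RPL11 was the only call, and edgeR called none lower: 1 was lower at an unadjusted p under 0.05, and the DESeq2 test called none lower. Without the filter on low counts edgeR called RPL10, RPL3 and RPLP2 lower, at -0.28, -0.20 and -0.21 (adjusted p = 0.000406, 0.0227 and 0.0176). Without uninduced library 3 it called RPL10, RPL3 and RPL12 lower, at -0.45, -0.30 and -0.18 (adjusted p = 0.000495, 0.0196 and 0.0459).

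Without uninduced library 2 edgeR called no member (5 at an unadjusted p under 0.05), and without uninduced library 3 it called 9, 4 higher and 5 lower. Without induced library 1, 2 or 3 it called RPS12 alone. Uninduced library 3 stood apart in the family: 68 of 78 members were below the mean of libraries 1 and 2, at a median log2 distance of -0.33, against -0.02 over all genes. Without it the median change of the members was -0.07. The family also moved together within the induced group. In induced library 2, 76 of 78 members were below the mean of induced libraries 1 and 3, at a median of -0.16. In induced library 1, 77 of 78 were above the mean of induced libraries 2 and 3, at a median of 0.11. Over all genes these medians were -0.0011 and 0.0043.

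RPS16 was named in the choice of genes from earlier results of these data, so its values are a description. In experiment 1 it had 69.8, 69 and 197 CPM in uninduced and 105, 109 and 109.8 CPM in induced libraries. Uninduced library 3 was above all others, and libraries 1 and 2 were below the induced ones. The log2 change was -0.04 ± 0.34 with that library and 0.64 without it. In uninduced library 3 RPS16 lay 1.505 log2 units above the mean of libraries 1 and 2, the highest of all members. The 20 tested genes nearest to it on chromosome 19 lay at a median of -0.07 there, from -0.35 to 0.33. RPLP1, a protein of the stalk, lay 0.72 above, with 299.6, 331 and 519.6 CPM. RPL8, the other gene named from earlier results, had 519.8, 483 and 542 CPM uninduced and 563, 494 and 548 CPM induced. Its groups overlapped, and the change was 0.06 ± 0.07.

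**Figure D2:**
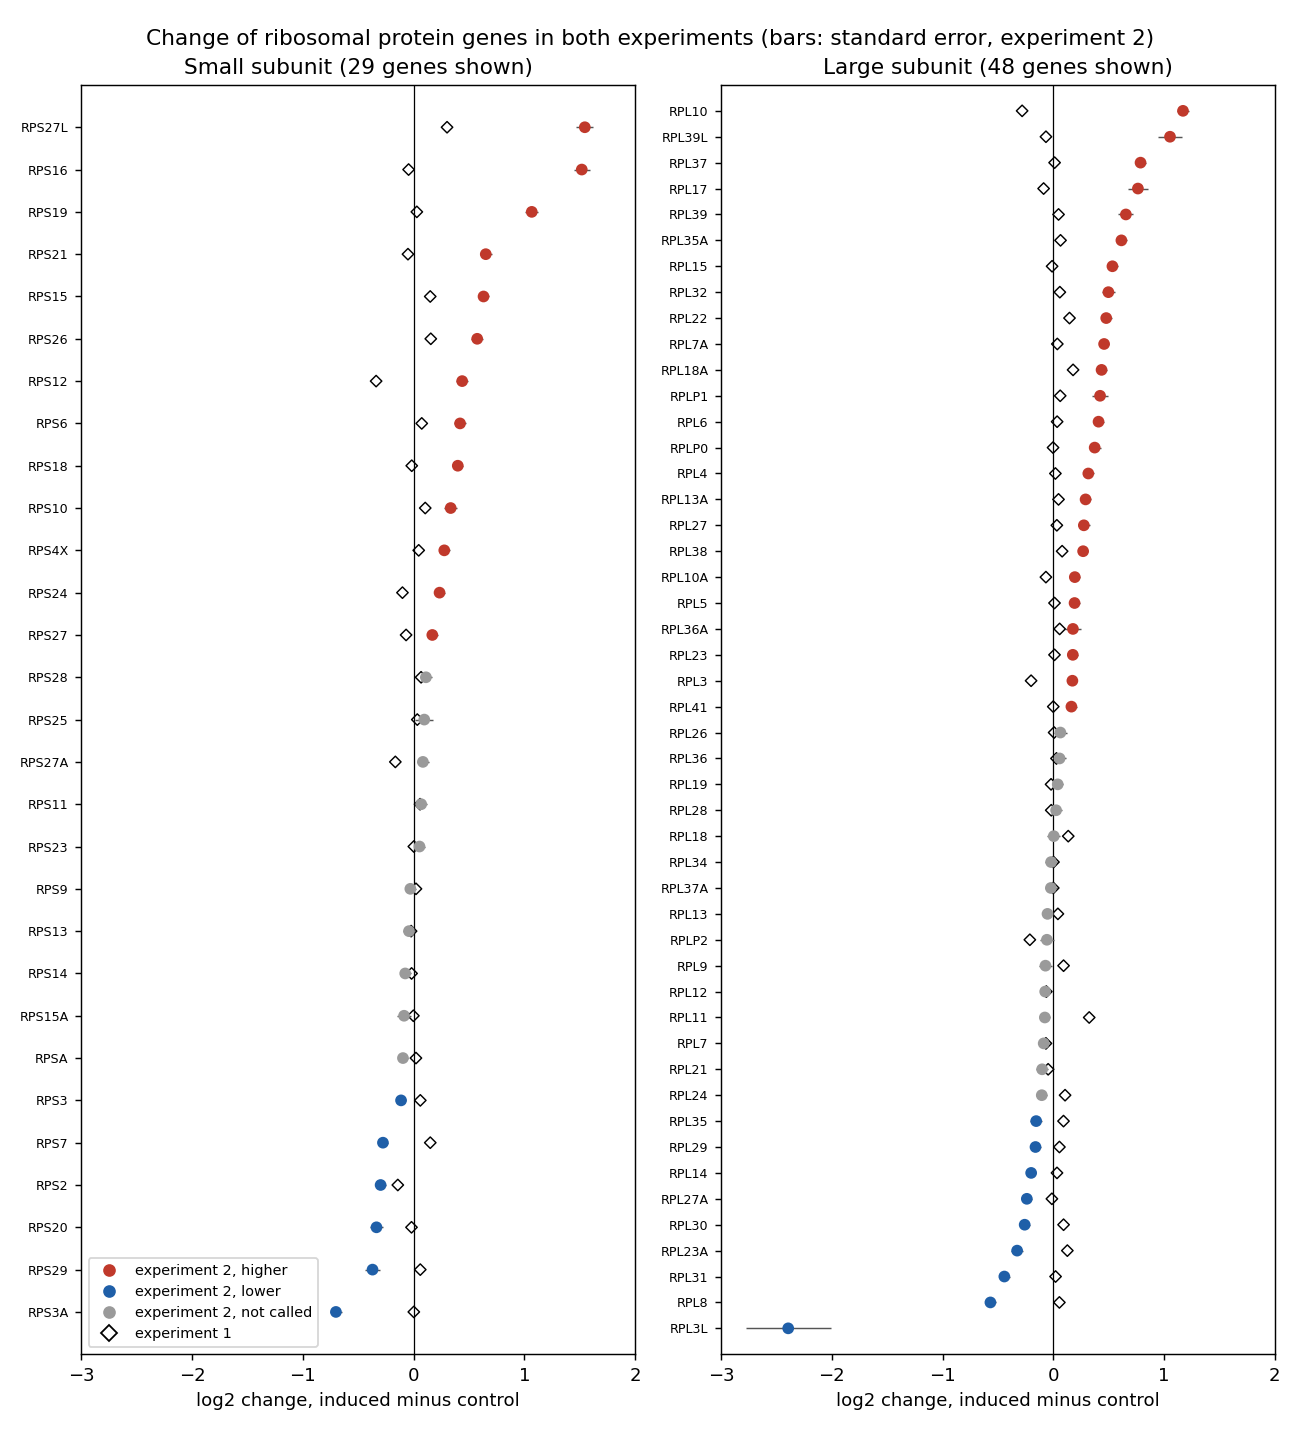
log2 change of the genes shown, small subunit left and large subunit right, ordered by experiment 2; filled points with SE bars are experiment 2 (red called higher, blue lower, grey not called) and open diamonds are experiment 1. The diamonds stay between -0.34 and 0.32, while the filled points run from -2.39 for RPL3L to 1.55 for RPS27L in both directions within each subunit.

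Against parental cells, the induced line had many ribosomal protein genes higher and fewer lower, and the family did not move as a block. Of 79 members tested, 38 were higher (48.1%) and 15 lower (19%), with a median log2 change of 0.10. Over all 17945 genes tested 32.1% were higher and 32.9% lower, 65% in all, with a median of -0.01. The 48 large subunit genes had 24 higher and 9 lower with a median of 0.11, and the 31 small subunit genes had 14 higher and 6 lower with a median of 0.10. The medians of the 2 subunits were 0.02 apart. The groups did not overlap in 38 members that were higher and 19 that were lower, 72.2%, against 68% of all genes. The change reached 1.5-fold in 11 members that were higher and 2 that were lower, and 2-fold in 5 and 1. The share of all genes past these sizes was not counted. The lower and upper quartiles of the log2 change were -0.08 and 0.42 for the members and -0.38 and 0.41 for all genes tested.

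In the small subunit RPS27L, RPS16 and RPS19 were highest over the parental cells. RPS16 had 157, 167 and 182 CPM in parental and 419, 505 and 529 CPM in induced libraries. Every induced library was more than 2-fold above every parental one, and the log2 change was 1.52 ± 0.07. RPS19, a small subunit protein whose loss of function causes Diamond-Blackfan anaemia, had 333, 289.7 and 288 CPM in parental and 639, 599 and 671 CPM in induced libraries. It rose by 1.07 ± 0.06 (adjusted p = 8.72e-13). RPS21 rose by 0.65 ± 0.05 (adjusted p = 5.12e-10), from 93 ± 5.99 to 146 ± 4.11 CPM (SD, n = 3). RPS15 rose by 0.63 ± 0.05 (adjusted p = 2.22e-10), from 399 ± 20.7 to 618 ± 2.63 CPM. In each of these genes the groups did not overlap.

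RPS3A, a small subunit protein, had the largest fall after the paralog RPL3L. It stood at 683, 594 and 672 CPM in parental and at 415, 369 and 416 CPM in induced libraries. The groups did not overlap, and it changed by -0.70 ± 0.06 (adjusted p = 8.96e-10). RPS29 changed by -0.37 ± 0.06 (adjusted p = 3.44e-05), from 128 ± 12.4 to 98.7 ± 7.23 CPM. RPS20, which forms part of the head of the small subunit, changed by -0.33 ± 0.06 (adjusted p = 2.68e-05), RPS2 by -0.30 ± 0.05 (adjusted p = 1.78e-05) and RPS7 by -0.28 ± 0.05 (adjusted p = 3.91e-05). In all of these the groups were apart. RPS12, which fell in experiment 1, was higher here. It had 284, 247 and 272 CPM in parental and 370.2, 338 and 381 CPM in induced libraries, a change of 0.44 ± 0.06 (adjusted p = 5.63e-07).

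In the large subunit RPL10, a late-joining protein needed to make the subunit active, rose most. It had 287, 296 and 263 CPM in parental and 616, 647 and 643 CPM in induced libraries, a change of 1.17 ± 0.05 (adjusted p = 1.99e-14). Its induced libraries were all more than 2-fold above the parental ones. RPL37 rose by 0.79 ± 0.05 (adjusted p = 6.48e-12), from 720.3 ± 27.6 to 1244 ± 37.5 CPM. RPL17 rose by 0.76 ± 0.09 (adjusted p = 1.78e-07), from 10.3 ± 1.12 to 17.5 ± 0.79 CPM. RPL17 took few reads for a ribosomal protein gene in every group, and it is known to share exons with a read-through gene; how such reads were counted is not given in the sources used here. RPS4X took the most reads of any member in experiment 2, at 4925 ± 149.9 CPM in parental and 5971 ± 104 in induced cells, not corrected for length, and rose by 0.28 ± 0.05 (adjusted p = 3.94e-05). In experiment 1 that place was held by RPL4, with 2387 ± 355 and 2419 ± 172 CPM.

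RPL8, a large subunit protein, had 1325, 1237 and 1210.3 CPM in parental and 808, 848 and 888 CPM in induced libraries. The groups did not overlap, and as a description the change was -0.57 ± 0.05. RPL31, at the exit of the peptide tunnel, went from 261, 251 and 264 CPM to 191, 182 and 199 CPM. It changed by -0.44 ± 0.05 (adjusted p = 6.14e-08), with the groups apart. RPL23A, also at the tunnel exit, changed by -0.33 ± 0.06 (adjusted p = 3.68e-05), and RPL30 by -0.26 ± 0.05 (adjusted p = 0.000118). Of the 5S pair, RPL5 passed the test here and RPL11 did not. RPL5 had 1166, 1102 and 1132 CPM in parental and 1307, 1254 and 1323 CPM in induced libraries, a rise of 0.19 ± 0.05 (adjusted p = 0.00122). RPL11 had 1796, 1863 and 1791 CPM and then 1742, 1681 and 1746 CPM, with a change of -0.08 ± 0.05 that did not pass (adjusted p = 0.159).

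The stalk, where translation factors dock, is built of RPLP0, RPLP1 and RPLP2. RPLP0 rose by 0.37 ± 0.06 (adjusted p = 4.36e-06), from 868 ± 58.3 to 1125 ± 62.1 CPM. RPLP1 rose by 0.42 ± 0.07 (adjusted p = 1.72e-05), from 518 ± 37.1 to 694 ± 88.4 CPM. RPLP2 had 230.2 ± 22.9 and 221 ± 11.5 CPM, with a change of -0.06 ± 0.06 that did not pass (adjusted p = 0.418). In experiment 1 none of the 3 passed, with changes of 0.00 ± 0.12, 0.06 ± 0.17 and -0.21 ± 0.08 (adjusted p = 0.992, 0.832 and 0.0873). RPLP1 was called at 0.35 without uninduced library 3 (adjusted p = 0.00189), and RPLP2 at -0.21 without the filter on low counts (adjusted p = 0.0176).

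**Figure D3:**
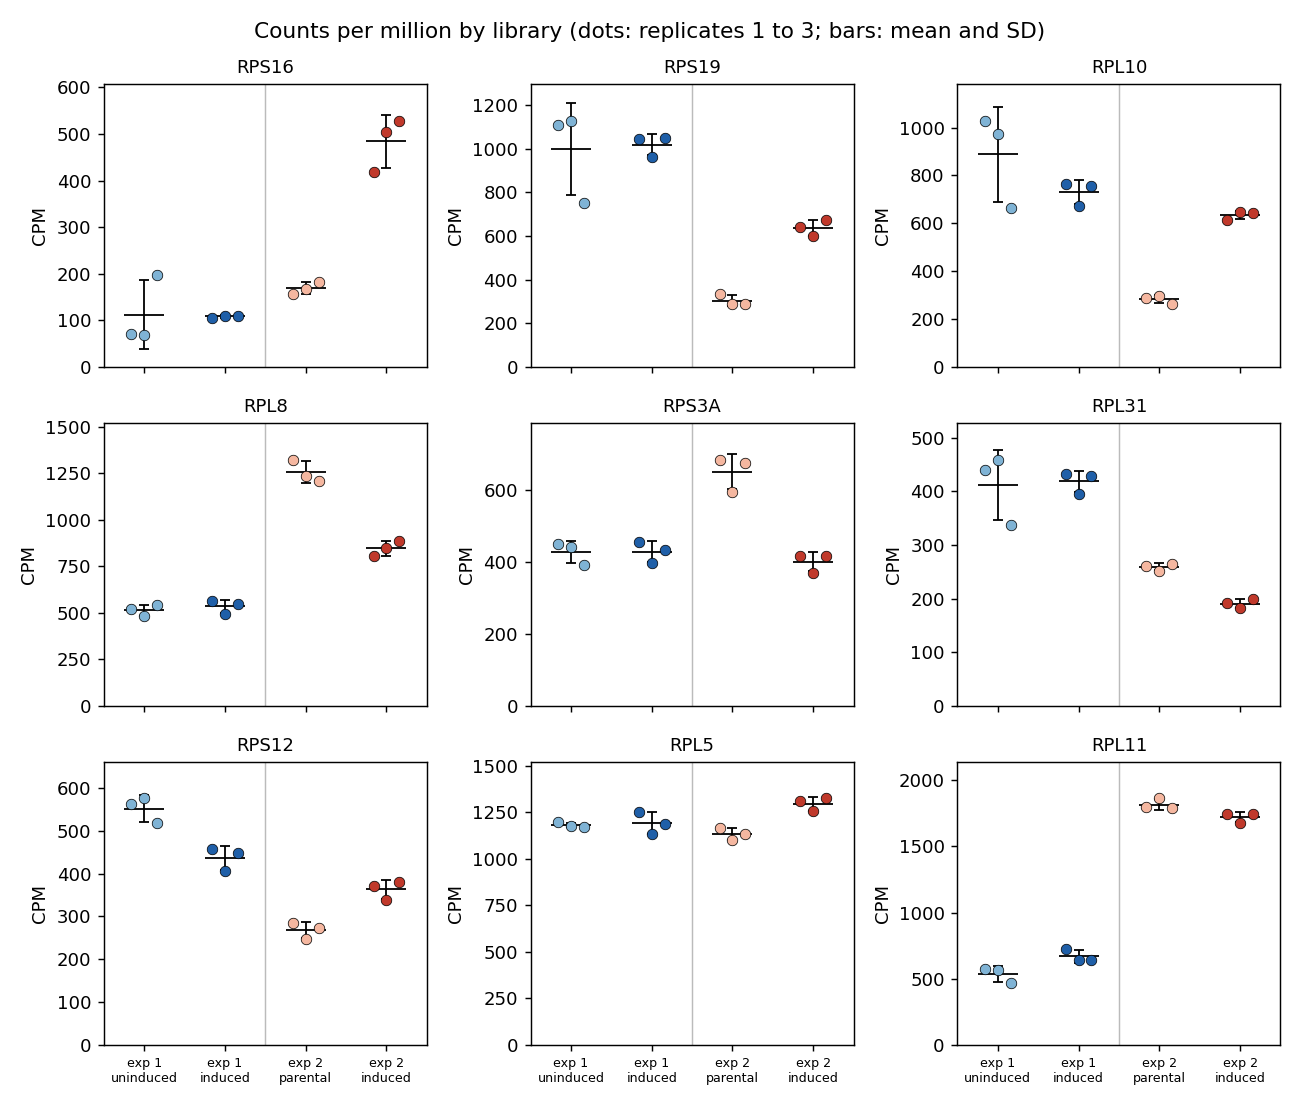
CPM of 9 genes in each library (dots, replicates 1 to 3 from left to right) with group mean and SD; experiment 1 is left of the grey line and experiment 2 right, each scaled within its own experiment. RPS16, RPS19 and RPL10 are higher and RPL8, RPS3A and RPL31 lower in all induced libraries of experiment 2, and uninduced library 3 is the high RPS16 point of experiment 1.

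The 3 paralogs with the suffix L encode variants that can stand in for their parent protein, and each had a larger change than its parent in experiment 2. RPS27L had 13.3, 16.6 and 15 CPM in parental and 41.2, 43.2 and 47.1 CPM in induced libraries, a rise of 1.55 ± 0.08 (adjusted p = 2.51e-13). Its parent RPS27 rose by 0.17 ± 0.05 (adjusted p = 0.00691), from 217 ± 11.5 to 244 ± 12.7 CPM. In experiment 1 RPS27 changed by -0.07 ± 0.07 (adjusted p = 0.561). RPL39L, a testis-enriched copy of the tunnel protein RPL39, had 8.51, 6.2 and 7.25 CPM in parental and 14.1, 16.6 and 14.9 CPM in induced libraries. It rose by 1.05 ± 0.11 (adjusted p = 1.94e-08). RPL39 rose by 0.66 ± 0.07 (adjusted p = 2.99e-08), from 47.8 ± 5.52 to 75.2 ± 4.15 CPM. In experiment 1 RPL39L changed by -0.07 ± 0.1 (adjusted p = 0.67) and RPL39 by 0.05 ± 0.1 (adjusted p = 0.764). Whether a paralog and its parent differed in change was not tested.

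RPL3L, the muscle form of RPL3, took very few reads. Parental libraries had 102, 78 and 79 reads and induced ones 17, 2 and 22. The induced libraries were all lower, and the log2 change was -2.39 ± 0.38 (adjusted p = 1.26e-05). The parent RPL3 rose by 0.17 ± 0.05 (adjusted p = 0.0021), from 505 ± 11.2 to 569 ± 9.84 CPM. In experiment 1 RPL3L had 6 reads over the uninduced and 17 over the induced libraries and was not tested, and RPL3 changed by -0.20 ± 0.11 (adjusted p = 0.234), or by -0.30 without uninduced library 3 (adjusted p = 0.0196).

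**Figure D4:**
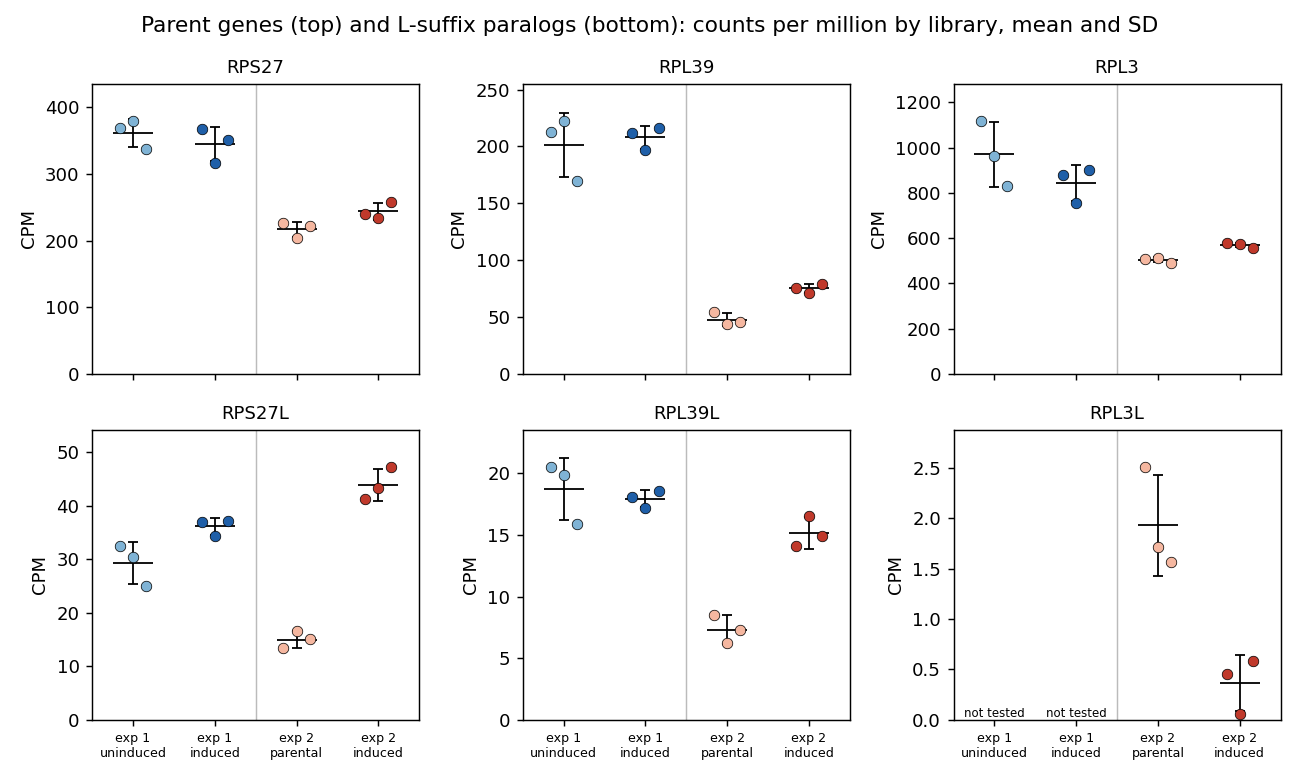
CPM of RPS27, RPL39 and RPL3 (top) and of their paralogs RPS27L, RPL39L and RPL3L (bottom) in each library, with group mean and SD; axes start at 0 and differ between panels, and RPL3L was not tested in experiment 1. In experiment 2 RPS27L goes from a mean of 15 to 43.8 CPM and RPL3L from 1.93 to 0.364 CPM.

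The change differed between the experiments for 36 of 79 members, 25 with a higher change in experiment 2 and 11 with a lower one, in the interaction contrast of edgeR over all 12 libraries. Over all 19942 genes tested, 25.9% had a higher and 26.3% a lower change, 52.2% in all. By subunit it was 13 and 7 of 48 large and 12 and 4 of 31 small subunit genes. RPL10 differed by 1.45 ± 0.16 (adjusted p = 4.85e-07), RPS27L by 1.25 ± 0.13 (adjusted p = 2.44e-07), RPL39L by 1.12 ± 0.15 (adjusted p = 6.79e-06) and RPS19 by 1.04 ± 0.16 (adjusted p = 2.3e-05). RPS12 differed by 0.78 ± 0.1 (adjusted p = 3.34e-06). RPS3A differed by -0.70 ± 0.11 (adjusted p = 2.31e-05), RPL31 by -0.46 ± 0.12 (adjusted p = 0.00352) and RPL11 by -0.40 ± 0.11 (adjusted p = 0.00458). Set side by side, RPS27L was called higher in both experiments. RPS12 was lower in experiment 1 and higher in experiment 2, and RPL11 was called in experiment 1 alone. A further 35 were called higher and 14 lower in experiment 2 alone, and 25 were called in neither.

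In experiment 2 several members with large changes, RPS16 and RPL8 among them, lay beside genes that changed in the same direction. For each gene the 10 nearest tested genes on each side were taken in RefSeq order. Around RPS16, on chromosome 19, 17 of 20 neighbours were higher, with a median log2 change of 1.21 and a range from 0.01 to 1.90. The genes directly beside it, PLEKHG2 and SUPT5H, changed by 1.07 and 1.16. Around RPL8, near the end of chromosome 8, 16 of the 18 neighbours were lower, with a median of -0.64 and a range from -1.42 to 0.14. ZNF34 and ZNF517 beside it changed by -0.54 and -1.03. In experiment 1 the same regions had medians of 0.11 and 0.11. There 5 of 20 neighbours of RPS16 and 2 of 18 of RPL8 were called higher.

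The other large changes were partly like those of RPS16 and RPL8. Around RPS3A 13 of 20 neighbours were lower with a median of -0.70, and its own change was -0.70. Around RPL10 13 of 20 were higher with a median of 0.74, and around RPL17 17 were higher with a median of 0.60. Around RPL31 12 were lower with a median of -0.62, and around RPL23A 17 were lower with a median of -0.56. RPS19 and the paralogs stood further from their neighbours. RPS19 had a neighbour median of 0.18, 0.89 below its own change. RPS27L lay 1.26 and RPL39L 0.69 above their neighbours, and RPL3L lay at -2.11 from its own. RPL36A rose by 0.18 ± 0.07 (adjusted p = 0.0353), with its groups overlapping, where its neighbours had a median of -0.77.

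Across the 79 members of experiment 2, own change and neighbour median had a Pearson r of 0.677 and a Spearman rho of 0.754. Without RPS16 and RPL8 the Pearson r was 0.624, and without RPL3L it was 0.772. Over all 15354 tested genes placed on a chromosome the values were 0.299 and 0.472. In experiment 1 they were 0.229 and 0.122 over 78 members and 0.2 and 0.214 over all 15867 genes. These describe genes of the same libraries, some of which share neighbours, and chromosomes. In experiment 2 the changes of all genes tested ran from -13.9 to 13.7, and those of the members from -2.39 to 1.55. The correlations of the members and of all genes are therefore not a like comparison. Own change and neighbour median had the same sign in 58 of 79 members (73.4%) in experiment 2, against 69.3% of all genes, and in 44 of 78 (56.4%) in experiment 1, against 57.5%. In experiment 2, 65 of 79 members lay above their neighbour median, at a median distance of 0.19. In experiment 1 it was 38 of 78, at a median of 0.00. The share of all genes above their neighbour median was not counted. By chromosome, all 4 members on chromosome X, all 4 on chromosome 12, all 4 on chromosome 6 and all 3 on chromosome 15 were called higher in experiment 2. On chromosome 8, 3 of 4 were lower, and on chromosome 19, 5 of 12 were higher. None of the 5 members on chromosome 11, or of the 4 on chromosome 2 and the 4 on chromosome 16, was called higher. Over all members 48.1% were higher and 19% lower, and over all genes tested 32.1% and 32.9%. The share of other genes called on each chromosome was not counted. The number of gene copies in either line was not measured, and its part in these values was not tested.

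**Figure D5:**
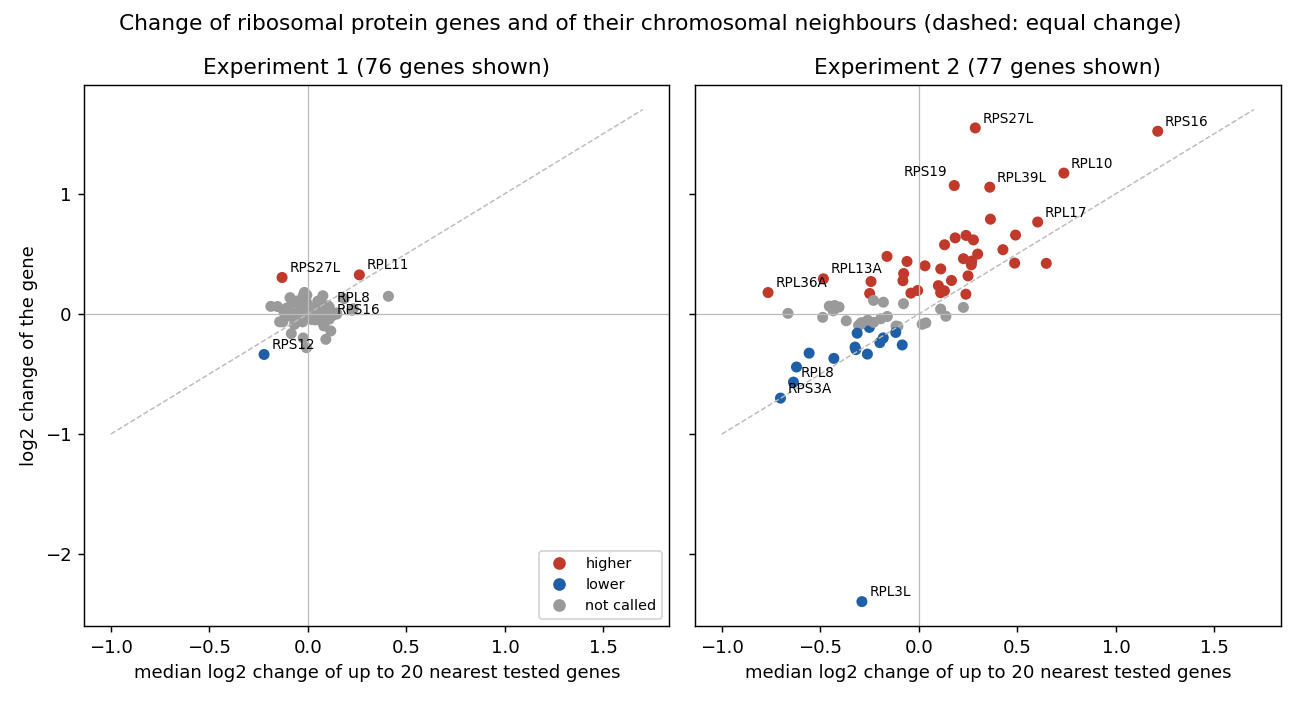
log2 change of the genes shown (vertical) against the median log2 change of up to 20 nearest tested genes (horizontal) in both experiments, red called higher, blue lower and grey not called; the dashed line marks equal change. In experiment 2 RPL8 (neighbour median -0.64) and RPS3A (-0.70) lie close to the line and RPS16 (1.21) lies 0.31 above it, while RPS27L and RPL3L lie far from it.

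The induced cells carry the same labels in both experiments, and their ribosomal protein genes still differed widely. Of 79 members, 24 were higher and 38 lower in experiment 2, against 34.8% and 34.2% of all genes, 68.9% in all. Scaled by library totals, 37 were higher and 27 lower, since that scaling moved the median of all genes from -0.02 to 0.18. The median of the members was -0.13 under TMM and 0.08 under library totals. The changes ran from -1.67 ± 0.09 for RPL39 to 2.39 ± 0.11 for RPL28 (adjusted p = 1.98e-11 and 1.93e-12). RPS26 differed by 2.17 ± 0.1 (adjusted p = 2.79e-12), RPL27A by 1.79 ± 0.07 (adjusted p = 3.6e-13) and RPS25 by 1.75 ± 0.12 (adjusted p = 2.85e-10). RPS16 differed by 1.96 ± 0.27. At the other end RPL31 differed by -1.33 ± 0.09 (adjusted p = 1.82e-10), RPS18 by -1.23 ± 0.1 (adjusted p = 3.21e-09) and RPL9 by -1.05 ± 0.07 (adjusted p = 1.17e-10). Further called members that were higher were RPL3L (1.39, from few reads), RPL11 (1.16), RPS4X (1.13), RPS3 (0.97) and RPL38 (0.88). Those that were lower were RPL34 (-0.90), RPL21 (-0.88), RPS19 (-0.88), RPL3 (-0.77) and RPS14 (-0.76). The RPL3L call was lost when induced library 2 or 3 of experiment 1, or 1 or 3 of experiment 2, was left out, with adjusted p up to 0.285. Large gaps were not confined to the induced cells. In the 12-library fit, control means of RPL28 were 97.0 CPM in experiment 1 and 493 in experiment 2, beside induced means of 95.8 and 501. For RPL39 the controls had 216 and 44.6 CPM and the induced groups 223 and 70.1. RPS16 controls lay closer, at 120 and 157 CPM, beside 116 and 452 induced. The mitochondrial gene MT-RNR2 took 23.1 and 23.2% of counts in the groups of experiment 1, and 0.03 and 0.052% in experiment 2. Experiment and library preparation cannot be told apart in these values.

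Ribosomal protein genes gave almost no circular RNA. In experiment 1, 16 circular RNAs of 14 members had 25 back-splice reads of 102928, and 14 of them had a single read. In experiment 2, 7 circular RNAs of 6 members had 26 of 141348 reads. The members held 0.0243% and 0.0184% of back-splice reads, against 4.21% and 4.81% of gene counts. In experiment 2 the most read was a circular RNA of 2 exons of RPL22 (chr1:6252990-6257816, GRCh37, minus strand), with 1, 2 and 1 reads in parental and 6, 4 and 2 in induced libraries. The induced libraries had 2 or more reads each and overlapped with the parental ones at 2. Its log2 change was 1.75 and did not pass (adjusted p = 0.608 in edgeR over 2381 circular RNAs). The RPL22 gene rose by 0.48 ± 0.05 (adjusted p = 4.59e-08).

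Other genes of the ribosome and its making were read from lists chosen with earlier results of these data known. Over all genes tested, 20.9% were called in experiment 1 and 65% in experiment 2. The 7 ribosomal proteins and paralogs that the naming rule leaves out had 1 higher in experiment 1, RPL7L1, at 0.22 ± 0.06 (adjusted p = 0.0291). In experiment 2 they had 1 higher and 2 lower, the latter RPL26L1 at -0.47 ± 0.06 (adjusted p = 3.81e-07) and RPL36AL. Of 14 translation factors and other genes with TOP mRNAs, edgeR called none in experiment 1, where 1 had an unadjusted p under 0.05 and DESeq2 called 1. In experiment 2, 5 were higher and 6 lower, from EIF3H, a subunit of an initiation factor, at -0.75 ± 0.05 (adjusted p = 1.08e-11) to EIF2S3 at 0.36 ± 0.04 (adjusted p = 4.21e-07).

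Ribosome biogenesis factors process the ribosomal RNA and join the proteins to it. Of 37 tested in experiment 1, 14 were higher and 3 lower, with a median log2 change of 0.16, where 10.5% of all genes were higher and 10.4% lower. MRTO4, a factor of large subunit assembly, had the largest rise, from 33 ± 1.48 to 55.4 ± 3.07 CPM (0.74 ± 0.06, adjusted p = 0.000316). RPF2, which brings the 5S particle into the subunit, changed by -0.22 ± 0.05 (adjusted p = 0.0179). In experiment 2, 10 were higher and 18 lower, with a median of -0.11, where 65% of all genes were called. FBL, the methyltransferase fibrillarin, rose by 0.89 ± 0.05 (adjusted p = 4.19e-12), and GRWD1 changed by -0.55 ± 0.05 (adjusted p = 8.79e-09). FBL lies close to RPS16 on chromosome 19. Of 13 genes of RNA polymerase I and its factors, which make the ribosomal RNA, 3 were higher and 1 lower in experiment 1 and 2 higher and 10 lower in experiment 2. POLR1C rose by 0.48 ± 0.12 in experiment 1 (adjusted p = 0.025), and POLR1B changed by -0.89 ± 0.05 in experiment 2 (adjusted p = 6.85e-13).

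Regulators of mTOR and of TOP mRNAs had 4 higher and 2 lower of 16 in experiment 1, where 20.9% of all genes were called, and 6 and 6 in experiment 2, where 65% were. MTOR itself rose by 0.60 ± 0.05 in experiment 1 (adjusted p = 0.000397) and changed by -0.43 ± 0.05 in experiment 2 (adjusted p = 7.84e-08). DDIT4, an inhibitor of mTOR, went the other way, by -0.94 ± 0.09 in experiment 1 (adjusted p = 0.000515) and by 1.03 ± 0.08 in experiment 2 (adjusted p = 7.04e-10). TSC2, another inhibitor, changed by -0.73 ± 0.05 in experiment 2 (adjusted p = 7.93e-11). Of 7 genes of ribosome rescue, 1 was higher and 1 lower in experiment 1: LTN1, a ubiquitin ligase for stalled chains, at 0.38 ± 0.06 (adjusted p = 0.00307) and HBS1L at -0.26 ± 0.05 (adjusted p = 0.00813). In experiment 2 it was 2 and 2, with PELO, the partner of HBS1L, at 0.57 ± 0.05 (adjusted p = 4.94e-09) and NEMF, the partner of LTN1, at -0.55 ± 0.05 (adjusted p = 7.8e-09).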

How the data were processed

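Total RNA of 12 HEK293 samples was sequenced from both ends. STAR 2.5.2b and build GRCh37 (hg19) are named in the submitters' processing notes. The counting tool, its strand setting and its treatment of reads with several matches are not given in the sources used here. The authors deposited raw read counts per gene and per back-splice junction, 1 table of each kind per experiment.

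From these counts, low genes were removed by filterByExpr (count of at least 10 and total of at least 15), libraries scaled by TMM and tested with edgeR 4.0.16 in R 4.3.3, two-sided, per experiment. A 12-library fit gave the difference between the changes and the comparison of the induced cells. CPM uses the TMM library size of the experiment, and SE is the log2 change over the root of F. CircRNAs needed 10 reads and a read in 3 libraries. Symbols that were lacking came from an identifier table, and chromosomal order and start sequences came from RefSeq tables for GRCh38.p14. Read counts limit precision through sampling, and a count of 0 was read as allowing 3 counts. No 2 replicates were 1 library: their counts differed by 5.72 to 40.6 in chi-square per gene. The fit was tested on simulated data.

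The members and lists were chosen with earlier results of these data known. Named with values are the 10 called members with the largest rise and fall per comparison, RPS16 and RPL8, the L-suffix paralogs with their parents, RPL5 and RPL11, the members with most and fewest reads, and the leading called genes of each list. The stalk proteins, RPL22, RPL36A, RPL36AL and the circRNAs were added after their values were seen, as were the neighbours of members other than RPS16 and RPL8. Alternatives were no low-count filter, library totals, DESeq2 1.42.0 size factors and test, a replicate block, pseudogene rows added, mitochondrial genes left out, and each library left out. Some genes are included in the counts but not reported by name or plotted here.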

Additional observations from a re-analysis of the deposited data

Results flagged for a closer look

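The change differed between the 2 experiments, by the interaction contrast, for 36 of 79 members (45.6%), against 52.2% of all 19942 genes tested. Of these members, those with large differences in each direction are given. RPS16 and RPL8 among them were named from earlier results, so their values are a description. As log2 change in experiment 2 minus that in experiment 1, the values above 0 were 1.57 for RPS16, 1.45 for RPL10, 1.25 for RPS27L, 1.12 for RPL39L, 1.04 for RPS19, 0.85 for RPL17, 0.78 for RPS12, 0.78 for RPL37 and 0.70 for RPS21. Those below 0 were -3.72 for RPL3L, -0.70 for RPS3A, -0.62 for RPL8, -0.46 for RPL31, -0.45 for RPL23A, -0.43 for RPS29, -0.43 for RPS7, -0.40 for RPL11, -0.35 for RPL30 and -0.32 for RPS20. The experiments share no library, but their controls are different cell lines, and only the controls of experiment 2 got doxycycline. Experiment, control line and doxycycline in the controls cannot be told apart in these differences. RPL3L rests on 23 reads in experiment 1. The RPS16 difference was 0.88 without uninduced library 3. Calls for RPL23A, RPL30 and RPS20 were lost when 1 library was left out, with adjusted p up to 0.108.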

How the results depend on the processing

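In experiment 1 the count of called members was 4 as reported, 7 without the low-count filter and 2 with the replicate block, and ranged from 0 to 9 with 1 library left out (0 without uninduced library 2, 9 without uninduced library 3). In experiment 2 it was 53, with 52 to 55 under the other settings, the replicate block included, and 51 to 56 with 1 library left out. The change differed between experiments for 36 members, and for 30 to 47 across the alternatives. The block lost the call of RPS27L, among others, in experiment 1. Same-numbered libraries had correlations from -0.18 to 0.23, with 2 of 6 control libraries closest to their own number. With 3 libraries per group these values cannot decide whether the numbers pair the samples. Small changes of experiment 1 turned sign for RPS16 with the replicate block (0.14), for RPL17 with pseudogene rows added (0.030), for RPL5 under library totals (-0.0091) and, with 1 library left out, for RPL39 (-0.0608 to 0.12), RPL39L (-0.17 to 0.0025), RPL4 (-0.10 to 0.11), RPL5 (-0.026 to 0.046) and RPS16 (-0.30 to 0.64). Summed shares in experiment 1 were 5.82% and 5.78% without mitochondrial genes. Back-splice reads of members in experiment 1 fell from 25 to 11 among circRNAs with at least 2 reads. Depth limits RPL3L and the circRNAs. Causes were not tested.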
